A study of Mus musculus with 12 samples.

Results

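The genes described here are 44 genes of mouse chromosome 1 that lie around Srp9, listed for their position by a rule that uses no measured value, with earlier results of these data known. Of these, 43 had a probe on the array, and Kctd3 had none. The array listed Brox under an older symbol. In the gene order of the GRCm38.p6 RefSeq table, the measured members ran from 25 measured genes before Srp9 (Cdc42bpa) to 51 after it (Atf3). A further 34 measured genes, Srp9 included, lay between these ends and were not on the list. The whole array gave 21643 genes, 1178 of them on chromosome 1.

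RNA was compared between 3 mouse strains, Bl6, CSS1 and CSS2, in 4 mice each at postnatal day 14, with 1 two-colour array per mouse. Bl6 is C57BL/6J, the strain of the reference pool against which every mouse was hybridised, and no group received a treatment. The names CSS1 and CSS2 are read here as chromosome substitution strains, inbred mice in which chromosome 1 or chromosome 2 of Bl6 is replaced by that of a donor strain; the labels state neither this nor the donor. The series title names Srp9, which encodes a subunit of the signal recognition particle, as a gene of susceptibility to febrile seizures, and the neighbours described here share its stretch of chromosome 1. The sample labels give hippocampus and the design text gives brains. All 10 hippocampal marker genes were above background on all 12 arrays, but so were 6 of 6 cerebellar and 6 of 6 choroid plexus markers, so this check does not tell the regions apart.

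A chromosome substitution strain differs from its parent in the sequence of 1 chromosome, so genes on it can differ in expression through their own allele. Such a local difference appears in one gene and need not appear in its neighbours, because adjacent genes often have separate promoters. The members were listed for their place and do not form one pathway. They include secreted ligands, kinases and phosphatases, proteins of the secretory pathway and nuclear proteins. Genes of RNA, ribosomes and translation, lipid and nucleotide enzymes, and cytoskeletal and ubiquitin ligase genes are also among them.

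Values are log2 ratios of a mouse's signal over the Bl6 pool, with the fitted dye effect removed, and a difference between strains is the difference of such means with the standard error (SE) of the fit. A gene was called when its Benjamini-Hochberg adjusted p in limma, taken over all 39239 kept probes, was below 0.05. Each gene is represented by its brightest probe unless stated. That probe was above background on all 12 arrays for all 43 measured members. Median sample signal was 188 to 408 intensity units per array over a background of 36 to 42, and 89.1% (CSS2 mouse 1) to 99.7% of gene probes exceeded background. The RNA came from tissue, so fewer cells of a type and less RNA per cell cannot be told apart in any difference below. A sequence difference between strains under a probe cannot be told apart from a difference in RNA level either, since probe sequences and donor alleles were not analysed here.

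In CSS1 against Bl6, 4 neighbours of Srp9 were higher (Lyplal1, Tmem63a, Degs1 and Capn2) and 4 were lower (Nvl, Lefty1, Cnih4 and Bpnt1). The largest rise was that of Lyplal1, 1.55-fold, and the largest fall was that of Nvl, to a level 1.5-fold below Bl6. The 8 called genes were 18.6% of the 43 members, while 2.03% of all genes tested were called in that comparison. The share was 9.3% in each direction, against 1.17% of all genes called higher and 0.859% called lower. Of the rest of chromosome 1, 7.36% of 1101 genes were called, and of the 34 other genes within the interval 4 were called, or 11.8%. On the other chromosomes the share was 1.69%. The 4 CSS1 mice lay wholly above or wholly below the 4 Bl6 mice in 11 members, or 25.6%, against 8.63% of all genes. Of these, 5 lay above and 6 below, where 4.49% and 4.14% of all genes did. The members had no common direction, with a median difference of 0.00 over the 43 (-0.00 over all genes), but their median size of difference was 0.06 on the log2 scale against 0.04 over all genes.

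**Figure D1:**
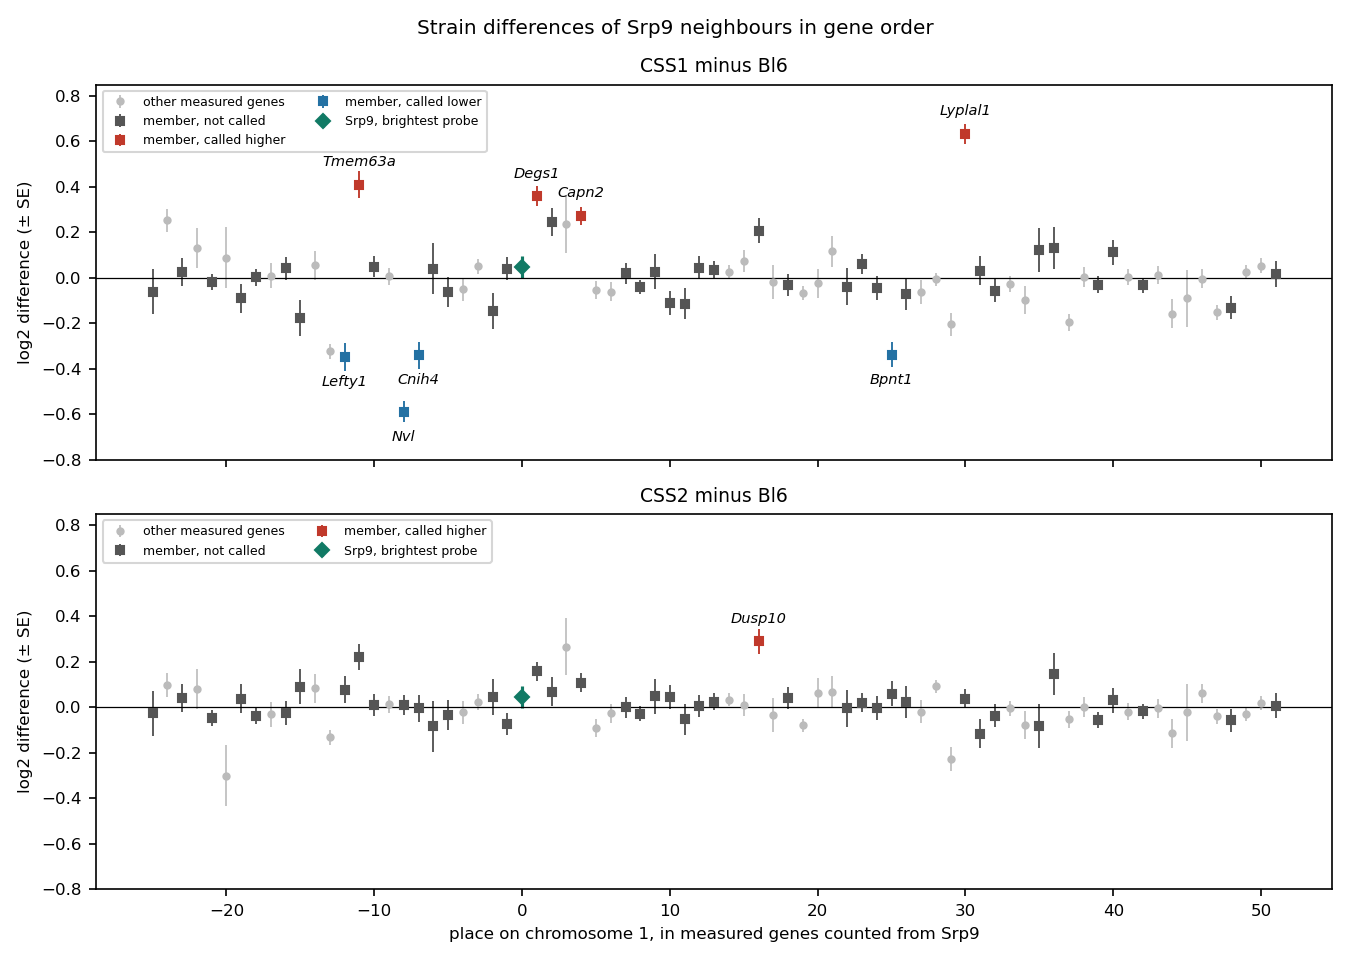
Strain differences (log2, with the SE of the fit) of the 43 measured members, of Srp9 and of the other measured genes between the outermost members, placed by their order on chromosome 1 counted in measured genes from Srp9; the upper panel is CSS1 minus Bl6 and the lower panel CSS2 minus Bl6. Red and blue squares are members called higher and lower, and a reader should see 4 of each in CSS1, and only Dusp10 called in CSS2.

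The called genes were spread among uncalled neighbours. The outermost called members were Lefty1, 12 measured genes before Srp9, and Lyplal1, 30 after it, and from one to the other the list holds 27 measured members. These ends were set by the calls, so by construction none of the 7 members before Lefty1 and the 9 after Lyplal1 was called. Each of those end stretches had 1 unadjusted p below 0.05 in limma (H3f3a and Nsl1). Of the genes not on the list, 0 of 16 were called between Lefty1 and Lyplal1. Before Lefty1, 2 of 6 were called (Coq8a and Lefty2), and after Lyplal1, 2 of 12 (Kcnk2 and Tatdn3). Lefty2 lies beside Lefty1. Leaving out 1 mouse ended the calls of Coq8a, Kcnk2 and Tatdn3 in 9, 6 and 12 of 12 cases. No contrast in arrangement between members and other genes is drawn from these counts. Before Srp9 the calls were 1 higher and 3 lower among 16 members, and after it 3 higher and 1 lower among 27. Genes called in opposite directions stood side by side: Lefty1 (lower) and Tmem63a (higher) are adjacent in the order of measured genes. Nvl and Cnih4, both lower, are adjacent as well. The members next to Srp9 on either side were Enah, with a difference of 0.04 (adjusted p = 0.893), and Degs1, which rose.

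Among the small molecule and lipid enzymes, 2 of 4 measured members rose in CSS1 and 1 fell. Lyplal1, a lysophospholipase-like hydrolase, was at 0.61, 0.59, 0.70 and 0.55 in CSS1 mice 3, 6, 9 and 12. In Bl6 mice 2, 5, 8 and 11 it was at -0.00, -0.01, -0.08 and 0.02, and in CSS2 mice 1, 4, 7 and 10 at -0.06, 0.07, 0.06 and 0.01. All 4 CSS1 mice stood above all 8 others with no overlap, and the lowest CSS1 mouse was far above the highest mouse of either other strain. The difference from Bl6 was 0.63 (SE 0.04, adjusted p = 2.70e-05 in limma), and the difference from CSS2 was 0.59 (adjusted p = 2.25e-05). It is represented by a single probe.

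Degs1 encodes the dihydroceramide desaturase that introduces the double bond of ceramide, the precursor of the sphingolipids. Its values were 0.35, 0.41, 0.42 and 0.32 in CSS1 mice 3, 6, 9 and 12, and -0.04, 0.10, 0.07 and -0.08 in Bl6 mice 2, 5, 8 and 11. CSS2 mice 1, 4, 7 and 10 were at 0.16, 0.20, 0.16 and 0.17. The CSS1 mice were the highest, the CSS2 mice lay between, and neither range touched that of Bl6. Degs1 rose by 0.36 in CSS1 (SE 0.04, adjusted p = 0.00244), a 1.28-fold difference. In CSS2 the difference from Bl6 was 0.16 and was not called (adjusted p = 0.177), and CSS1 against CSS2 gave 0.20 (adjusted p = 0.0703).

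Bpnt1 encodes a nucleotidase that breaks down the nucleotide left over from sulfation reactions. It was at -0.34, -0.27, -0.22 and -0.44 in CSS1 mice 3, 6, 9 and 12. Bl6 mice 2, 5, 8 and 11 had -0.02, 0.05, -0.03 and 0.09, and CSS2 mice 1, 4, 7 and 10 had 0.00, 0.05, 0.18 and 0.09. Every CSS1 mouse lay below every mouse of the other strains. Bpnt1 fell by 0.34 against Bl6 (SE 0.06, adjusted p = 0.0122) and by 0.40 against CSS2 (adjusted p = 0.00398), and without CSS1 mouse 3 the adjusted p against Bl6 was 0.0516. The fourth enzyme, the epoxide hydrolase Ephx1, differed by 0.05 (adjusted p = 0.84).

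Bpnt1 and Iars2, which encodes the mitochondrial isoleucyl-tRNA synthetase, are adjacent measured genes that point away from each other, and their promoter windows are shown because one gene of the pair fell and the other was not called. Iars2 differed by -0.04 in CSS1 (adjusted p = 0.881). The windows, from RefSeq on GRCm38.p6, run from 250 bases before to 50 after the transcript start, each on its gene's own strand, and are those of the C57BL/6J reference. Capitals mark the letters CCAAT on either strand (CCAAT or ATTGG). The windows are at chr1:185331909-185332208 on the plus strand for Bpnt1 and at chr1:185329352-185329651 on the minus strand for Iars2, with 2257 bases between them.
Bpnt1: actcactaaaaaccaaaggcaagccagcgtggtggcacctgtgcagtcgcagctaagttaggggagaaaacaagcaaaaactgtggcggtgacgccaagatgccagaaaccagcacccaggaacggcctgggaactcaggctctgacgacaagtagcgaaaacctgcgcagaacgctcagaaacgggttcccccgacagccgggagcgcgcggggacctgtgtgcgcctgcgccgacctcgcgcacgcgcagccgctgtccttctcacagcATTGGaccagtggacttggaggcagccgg
Iars2: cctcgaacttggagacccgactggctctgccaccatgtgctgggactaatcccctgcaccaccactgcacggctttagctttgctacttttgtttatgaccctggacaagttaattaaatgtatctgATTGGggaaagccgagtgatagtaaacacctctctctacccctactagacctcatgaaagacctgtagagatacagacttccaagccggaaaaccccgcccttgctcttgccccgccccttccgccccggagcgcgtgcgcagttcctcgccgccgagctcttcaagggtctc
Each window holds 1 such match. The Bpnt1 window has a GC content of 61.3% and 24 CG dinucleotides, and the Iars2 window has 55.0% and 15, while the median over 32851 windows of this length was 52.7% and 7.

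In the group for RNA, ribosome and translation, 1 of 5 members fell in CSS1 and none rose. Nvl encodes a nuclear ATPase of the AAA family that takes part in the making of the large ribosomal subunit. It was at -0.58, -0.57, -0.59 and -0.57 in CSS1 mice 3, 6, 9 and 12, with the smallest spread in CSS1 of the called members. Bl6 mice 2, 5, 8 and 11 were at 0.09, -0.04, -0.08 and 0.09, and CSS2 mice 1, 4, 7 and 10 at 0.09, -0.01, -0.01 and 0.02. The CSS1 mice did not overlap either other strain. Nvl fell by 0.59 against Bl6 (SE 0.04, adjusted p = 6.32e-05) and by 0.60 against CSS2 (adjusted p = 2.84e-05).

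The other members of the group for RNA, ribosome and translation were not called. Rrp15, a factor of ribosomal RNA processing, differed by -0.06 (adjusted p = 0.81) in CSS1, with 4 CSS1 mice between -0.14 and -0.00 and 4 Bl6 mice between -0.12 and 0.08. The G-patch gene Gpatch2 had a difference of 0.12 (adjusted p = 0.77), with CSS1 mice from 0.07 to 0.39 and Bl6 mice from -0.03 to 0.17. Both ranges overlapped those of Bl6. Eprs, the cytoplasmic glutamyl-prolyl-tRNA synthetase, differed by -0.07 (adjusted p = 0.842).

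Among the membrane and secretory genes, 1 of 8 rose in CSS1 and 1 fell. Cnih4 belongs to the cornichon family, whose members act as receptors for cargo leaving the endoplasmic reticulum. It was at -0.31, -0.15, -0.38 and -0.38 in CSS1 mice 3, 6, 9 and 12, at 0.15, -0.02, 0.05 and -0.03 in Bl6 mice 2, 5, 8 and 11, and at 0.01, 0.11, 0.02 and -0.01 in CSS2 mice 1, 4, 7 and 10. CSS1 mouse 6 was nearest to the other strains but still below all of them. Cnih4 fell by 0.34 against Bl6 (SE 0.06, adjusted p = 0.0155) and by 0.34 against CSS2 (adjusted p = 0.0202). Without Bl6 mouse 2 the adjusted p against Bl6 was 0.0601, and without CSS1 mouse 3 it was 0.0593. A second, dimmer probe of Cnih4 fell by 0.80 (SE 0.09, adjusted p = 0.00196), and its 4 CSS1 values of -1.05, -0.61, -0.86 and -0.98 again had mouse 6 as the least low. Cnih3, its relative that serves AMPA-type glutamate receptors, differed by -0.06 (adjusted p = 0.872).

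Nvl and Cnih4 point away from each other on chromosome 1, and their promoter windows are shown because both genes fell in CSS1. They lie at chr1:181144155-181144454 on the minus strand (Nvl) and chr1:181150681-181150980 on the plus strand (Cnih4), 6226 bases apart, so the windows are separate. Capitals again mark CCAAT on either strand.
Nvl: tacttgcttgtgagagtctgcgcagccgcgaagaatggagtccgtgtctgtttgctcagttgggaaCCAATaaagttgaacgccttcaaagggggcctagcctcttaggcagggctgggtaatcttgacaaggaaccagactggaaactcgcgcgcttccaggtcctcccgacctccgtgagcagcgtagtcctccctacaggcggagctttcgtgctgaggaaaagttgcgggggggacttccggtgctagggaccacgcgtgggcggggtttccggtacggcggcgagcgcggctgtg
Cnih4: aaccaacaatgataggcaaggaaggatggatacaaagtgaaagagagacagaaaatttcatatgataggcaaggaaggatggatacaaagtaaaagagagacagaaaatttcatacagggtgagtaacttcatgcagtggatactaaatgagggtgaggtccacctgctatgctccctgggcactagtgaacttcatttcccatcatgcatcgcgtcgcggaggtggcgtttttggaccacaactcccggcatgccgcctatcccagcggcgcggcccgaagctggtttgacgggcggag
The Nvl window has a GC content of 60.3%, 24 CG dinucleotides and 1 CCAAT, and the Cnih4 window has 49.7%, 13 and none. For comparison, the window of Lyplal1, the member with the largest rise, is at chr1:186117261-186117560 on the minus strand.
Lyplal1: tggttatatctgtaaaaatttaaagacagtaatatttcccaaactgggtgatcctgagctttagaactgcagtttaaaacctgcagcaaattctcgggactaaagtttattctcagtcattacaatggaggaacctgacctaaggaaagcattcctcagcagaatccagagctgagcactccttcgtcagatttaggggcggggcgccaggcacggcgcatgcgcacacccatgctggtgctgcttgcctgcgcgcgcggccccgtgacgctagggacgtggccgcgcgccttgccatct
It has a GC content of 52.3%, 17 CG dinucleotides and no CCAAT. Of the 44 genes listed, 40 had an entry in this table, with 51 windows in all since some genes have several. The letters CCAAT were in 22 of the 51 windows, or 43.1%, against 37.4% of all windows, and in 4 of the 7 windows of called members. The letters TATAAA were in 3 of the 51, or 5.88%, and in 0 of the 7, against 13.6% of all windows. These are matches of letters and say nothing of which factor binds.

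Tmem63a encodes a mechanically gated ion channel of the membrane. It was at 0.33, 0.44, 0.34 and 0.33 in CSS1 mice 3, 6, 9 and 12, and at -0.17, -0.09, 0.07 and -0.01 in Bl6 mice 2, 5, 8 and 11. CSS2 mice 1, 4, 7 and 10 were at 0.29, 0.13, 0.09 and 0.17. All CSS1 mice lay above all CSS2 mice, and all CSS2 mice above all Bl6 mice. The rise in CSS1 was 0.41 (SE 0.06, adjusted p = 0.0054), or 1.33-fold. In CSS2 the difference was 0.22 and was not called (adjusted p = 0.144), and the difference between CSS1 and CSS2 was 0.19 (adjusted p = 0.278).

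The remaining 6 genes of this group were not called. They were Psen2 (a catalytic subunit of gamma-secretase), Acbd3 (a Golgi scaffold), Cnih3, Mia3 (which exports collagen from the endoplasmic reticulum), Rab3gap2 (a regulatory subunit of the Rab3 GTPase-activating complex) and Brox. Their differences in CSS1 ran from -0.11 in Brox to 0.06 in Rab3gap2.

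**Figure D2:**
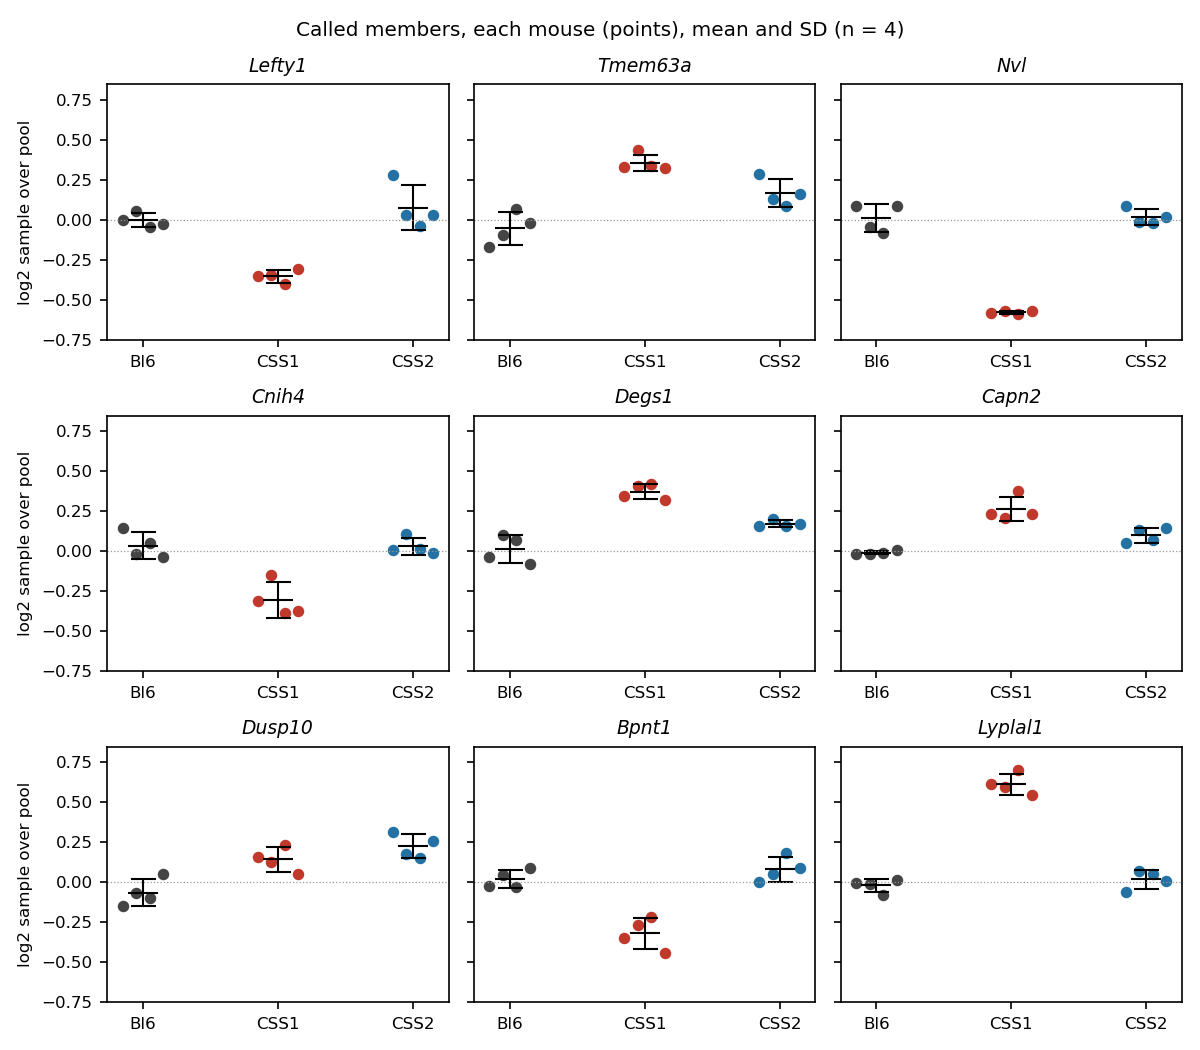
Log2 ratio over the Bl6 pool of each mouse (points) with the strain mean and SD (bars, n = 4) for the 9 members called in CSS1 or CSS2 against Bl6, in their order on chromosome 1. CSS1 points lie apart from both other strains in Lefty1, Nvl, Cnih4, Bpnt1 and Lyplal1, while CSS2 points lie between CSS1 and Bl6 in Tmem63a, Degs1 and Capn2.

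Of the secreted ligands and receptors, 1 of 5 fell and none rose. Lefty1 encodes a secreted protein of the TGF-beta family that blocks Nodal signalling and is known from left-right patterning of the embryo. Its probe read -0.35, -0.34, -0.40 and -0.30 in CSS1 mice 3, 6, 9 and 12. In Bl6 mice 2, 5, 8 and 11 it read 0.01, 0.06, -0.04 and -0.02, and in CSS2 mice 1, 4, 7 and 10 it read 0.28, 0.03, -0.03 and 0.03. The CSS1 mice overlapped neither strain. The fall was 0.35 against Bl6 (difference -0.35, SE 0.06, adjusted p = 0.016) and 0.43 against CSS2 (difference -0.43, adjusted p = 0.00498). Its call against Bl6 was lost without Bl6 mouse 2 (adjusted p = 0.0626), Bl6 mouse 5 (0.0634), CSS1 mouse 3 (0.0593) or CSS1 mouse 9 (0.0512).

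Lefty2, a near-identical paralogue of Lefty1 that lies beside it and is not on the list, had a similar pattern, and the probe of one gene may read RNA of the other, so neither value is certain to belong to its gene. Lefty2 was at -0.36, -0.30, -0.32 and -0.30 in CSS1 mice 3, 6, 9 and 12 and between -0.03 and 0.05 in the 4 Bl6 mice. It fell by 0.32 (SE 0.03, adjusted p = 0.000699). Unlike Lefty1, its 4 CSS2 mice, from -0.18 to -0.10, were all below Bl6, though the difference of -0.13 was not called (adjusted p = 0.119).

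The other ligands and receptors were uncalled, with differences from -0.04 to 0.03. Tgfb2, a ligand of the TGF-beta receptors, ranged from -0.02 to 0.13 in CSS1, from -0.13 to 0.19 in Bl6 and from -0.16 to -0.02 in CSS2. Its CSS1 difference was 0.03 (adjusted p = 0.956). Tlr5, the receptor for bacterial flagellin, differed by -0.04 (adjusted p = 0.775) and had the smallest residual SD of any member. Disp1, which releases lipid-modified Hedgehog proteins, and the complement inhibitor Susd4 differed by 0.03 and 0.02.

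In the group for the cytoskeleton, proteolysis and ubiquitin ligases, 1 of 4 measured members rose and none fell. Capn2 encodes the catalytic subunit of m-calpain, a calcium-dependent protease. It was at 0.23, 0.21, 0.38 and 0.23 in CSS1 mice 3, 6, 9 and 12. The 4 Bl6 mice lay close together at -0.01, -0.01, -0.01 and 0.01 in mice 2, 5, 8 and 11, and CSS2 mice 1, 4, 7 and 10 were at 0.05, 0.13, 0.07 and 0.15. The strains did not overlap, with CSS1 highest and CSS2 between. Capn2 rose by 0.27 in CSS1 (SE 0.04, adjusted p = 0.00768), while the differences of 0.11 between CSS2 and Bl6 (adjusted p = 0.396) and of 0.16 between CSS1 and CSS2 (adjusted p = 0.132) were not called.

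Fbxo28, an F-box subunit of an SCF ubiquitin ligase, was the uncalled member with the largest difference. It was at 0.16, 0.14, 0.19 and 0.46 in CSS1 mice 3, 6, 9 and 12 and at 0.02, -0.05, 0.04 and -0.04 in Bl6 mice 2, 5, 8 and 11. The groups did not overlap, but mouse 12 stood far above its strain. The difference was 0.24 (SE 0.06, adjusted p = 0.0945). Enah, an actin regulator of the Ena/VASP family, lay between 0.04 and 0.20 in CSS1 and between 0.00 and 0.13 in Bl6.

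None of the 7 genes for kinases, phosphatases and other signal transduction was called in CSS1 by limma, with 1 unadjusted p below 0.05, that of Dusp10. Dusp10 encodes a phosphatase that inactivates the stress-activated MAP kinases. It was at 0.16, 0.13, 0.24 and 0.05 in CSS1 mice 3, 6, 9 and 12, at -0.15, -0.06, -0.10 and 0.06 in Bl6 mice 2, 5, 8 and 11, and at 0.31, 0.18, 0.15 and 0.26 in CSS2 mice 1, 4, 7 and 10. The CSS2 mice were all above Bl6, while the CSS1 and Bl6 mice overlapped. The CSS1 difference was 0.21 (SE 0.06, adjusted p = 0.111).

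The other 6 were the inositol trisphosphate kinase Itpkb, the Cdc42-binding kinase Cdc42bpa, the microtubule-affinity kinase Mark1, the S6 kinase-like gene Rps6kc1, the tyrosine phosphatase Ptpn14 and the axin interactor Aida. Their differences in CSS1 ran from -0.11 in Aida (adjusted p = 0.651) to -0.02 in Itpkb. Rps6kc1 differed by -0.03 (adjusted p = 0.854), with CSS1 mice from -0.07 to 0.03 and Bl6 mice from -0.03 to 0.05. For Aida the ranges were -0.20 to 0.04 in CSS1 and -0.07 to 0.17 in Bl6, which overlap.

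Of the 10 nuclear genes none was called in CSS1 in limma, with an unadjusted p below 0.05 in 2, H3f3a and Nsl1. H3f3a encodes the replacement histone H3.3 and has near-identical copies elsewhere in the genome, so its probes are uncertain. It was at -0.15, -0.34, -0.15 and -0.13 in CSS1 mice 3, 6, 9 and 12 and at -0.05, -0.10, -0.01 and 0.11 in Bl6 mice 2, 5, 8 and 11. The strains did not overlap, and the difference was -0.18 (SE 0.08, adjusted p = 0.424). Nsl1, a subunit of the kinetochore MIS12 complex, was at -0.10, -0.08, -0.20 and -0.16 in the same CSS1 mice and at 0.07, -0.06, -0.05 and 0.02 in the Bl6 mice. Its difference was -0.13 (adjusted p = 0.3), again without overlap.

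The remaining 8 nuclear genes included the poly(ADP-ribose) polymerase Parp1, Lin9 (a subunit of the DREAM complex), Lbr (the lamin B receptor) and Taf1a (a factor of RNA polymerase I). The others were the homeobox gene Hlx, the orphan nuclear receptor Esrrg, the stress-induced factor Atf3 and the lysine methyltransferase Smyd2. In CSS1 these 8 genes ranged from -0.15 in Lbr to 0.13 in Esrrg. Over the whole list, 35 members were not called, with differences from -0.18 to 0.24, and 25 of them were smaller than 0.1 in size. Their SEs lay between 0.03 and 0.11, so these genes are not shown to be equal between the strains.

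The dye orientation of the sample was balanced within each strain, and the 8 differences kept their direction within the arrays of either orientation. Lyplal1 differed by 0.70 with the sample in Cy3 and by 0.57 with it in Cy5, and Nvl by -0.59 in both. Tmem63a gave 0.38 and 0.43, Degs1 0.36 and 0.35, and Capn2 0.32 and 0.23 in the same order. Lefty1 gave -0.36 and -0.34, Cnih4 -0.45 and -0.24, and Bpnt1 -0.25 and -0.42. With only 2 mice a strain in each orientation, none of these reached the threshold. Leaving out CSS1 mouse 3 left 5 of the 8 calls, losing Bpnt1, Cnih4 and Lefty1. With median centring of each array in place of loess, the calls of Lefty1, Nvl and Lyplal1 remained, while Tmem63a (adjusted p = 0.0924), Degs1 (0.126), Bpnt1 (0.136), Cnih4 (0.219) and Capn2 (0.254) kept their direction without a call.

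In CSS2 against Bl6, 1 of the 43 members was called, or 2.33%, against 1.04% of all genes tested (0.661% called higher). The gene was Dusp10, higher by 0.29 (SE 0.06, adjusted p = 0.0373), a 1.22-fold difference seen in 4 of 4 CSS2 mice. Leaving out 1 mouse ended this call in 8 of 12 cases (Bl6 mice 2, 5 and 8, CSS1 mice 3 and 6, CSS2 mice 1, 4 and 10), with adjusted p between 0.0558 and 0.138. The 4 members without overlap between CSS2 and Bl6 (9.3%, against 7.18% of all genes, 4.16% higher) were Dusp10, Tmem63a, Degs1 and Capn2, all of them higher in CSS2. The median size of difference over the members was 0.04, as over all genes. CSS1 and CSS2 were compared with the same 4 Bl6 mice, so their differences from Bl6 share those samples.

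CSS1 and CSS2 were therefore also set against each other, with no Bl6 mouse in the difference. Of the 43 members, 5 were called, or 11.6%, against 0.97% of all genes tested and 5.81% of the rest of chromosome 1. They were Lyplal1, higher in CSS1, and Nvl, Lefty1, Bpnt1 and Cnih4, lower in CSS1, where 0.374% of all genes were called higher and 0.596% lower. All 5 were called against Bl6 too. The same CSS1 mice and the same estimate of the spread enter both comparisons, so these calls are not independent. The Cnih4 call here was lost without CSS1 mouse 3, 9 or 12 or any 1 CSS2 mouse, with adjusted p between 0.0536 and 0.0795. Groups did not overlap in 10 members, or 23.3%, against 6.07% of all genes. Tmem63a, Degs1, Capn2 and Fbxo28 were among these, each with every CSS1 mouse above every CSS2 mouse but without a call, and H3f3a lay below without a call.

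Markers of other cells differed between the strains beside these genes. The median of 14 measured myelin genes was between 0.54 and 0.75 in the 4 CSS1 mice and between 0.51 and 0.77 in the 4 CSS2 mice, but between -0.28 and 0.20 in the 4 Bl6 mice. Of these myelin genes 9 were called higher in CSS1 and 8 in CSS2, where 1.17% and 0.661% of all genes were called higher. All 14 were above background on all arrays. The median of 15 astrocyte genes was 0.22 ± 0.08 (SD, n = 4) in CSS1, 0.13 ± 0.06 in CSS2 and -0.03 ± 0.07 in Bl6, with 3 and 1 called higher. Tmem63a, Degs1, Capn2 and Dusp10 were the 4 called members whose CSS2 mice all lay above Bl6. They were picked for that rise, so the direction they share with these lists follows from the choice. Lists of brain regions and microglia stood beside them as follows. The cerebellar list median was 0.63, 0.24, 0.20 and 0.53 in CSS2 mice 1, 4, 7 and 10 and between -0.29 and 0.26 in Bl6, with none of 6 genes called in limma but 5 at an unadjusted p below 0.05. It was highest in CSS2 mice 1 and 10, in which Dusp10 was also highest. The myelin list median was highest in the same mice too, at 0.774 and 0.765, against 0.612 and 0.509 in CSS2 mice 4 and 7. With 4 mice a strain, whether Dusp10 follows either list from mouse to mouse was not tested. In CSS1 the medians of the thalamus and hypothalamus list (0.11 to 0.21, against -0.08 to 0.05 in Bl6) and of the microglia list (0.08 to 0.12, against -0.06 to 0.06) lay wholly above Bl6, with 0 of 6 and 1 of 9 genes called higher and 3 and 2 at an unadjusted p below 0.05. No gene of the choroid plexus, striatum or hippocampal principal neuron lists was called against Bl6. Of the endothelial and mural list, 1 gene was called higher and 1 lower in CSS1. The part of cell makeup and dissected region in the differences of Tmem63a, Degs1, Capn2 and Dusp10 was not tested.

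Some genes of dividing cells and immature neurons were lower in CSS1, namely 7 of 14 and 2 of 9, where 0.859% of all genes were called lower. The median of 14 dividing-cell genes lay between -0.24 and -0.21 in CSS1, between -0.09 and -0.00 in CSS2 and between -0.05 and 0.07 in Bl6, with 1 gene called lower in CSS2. Cenpf of that list, and Prox1 of the hippocampal principal neuron list, themselves lie between the outermost members. They differed by 0.002 and 0.003 in CSS1 against Bl6, and neither was called. For 9 immature neuron genes the medians were -0.33 to -0.17 in CSS1, -0.28 to -0.03 in CSS2 and -0.12 to 0.10 in Bl6, with 1 called lower in CSS2. Over all genes, 0.379% were called lower in CSS2. Among the members that fell in CSS1, the CSS2 means were 0.08 for Lefty1, 0.02 for Nvl, 0.03 for Cnih4 and 0.08 for Bpnt1. The part of cell makeup in these falls was not tested.

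**Figure D3:**
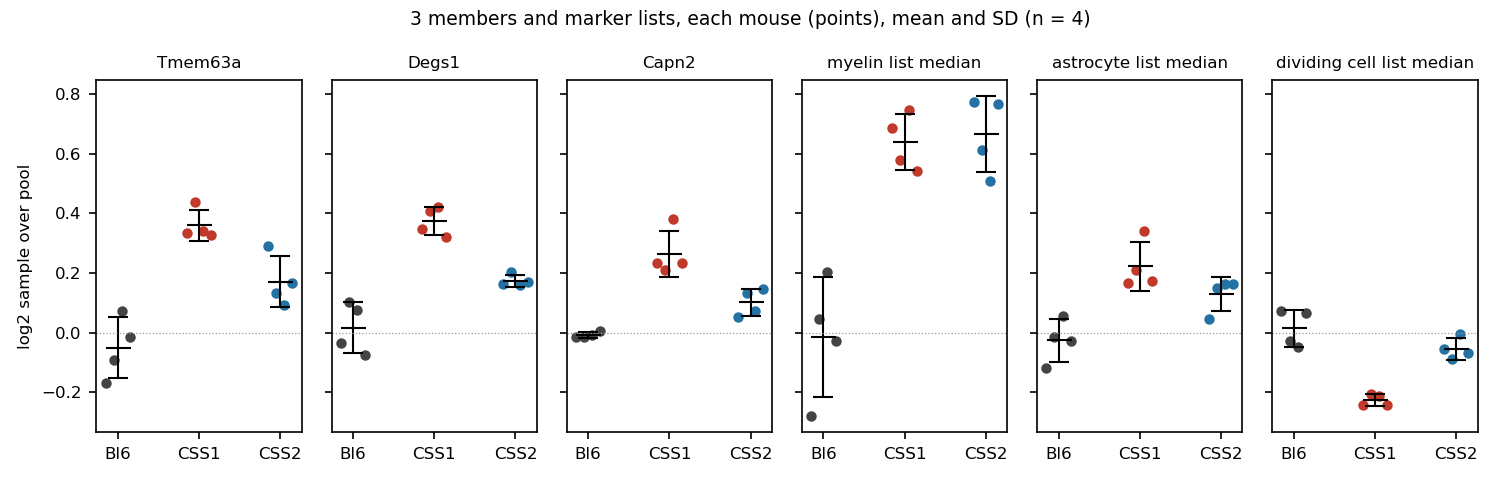
Log2 ratio over the Bl6 pool of each mouse (points, with strain mean and SD, n = 4) for Tmem63a, Degs1 and Capn2 beside the per-mouse median of the myelin, astrocyte and dividing-cell marker lists. CSS2 mice reach the level of CSS1 mice in the myelin list but lie between Bl6 and CSS1 in the 3 members. The CSS2 mean also lies between in the astrocyte list (0.13, against -0.03 in Bl6 and 0.22 in CSS1). The same holds in the dividing-cell list (-0.05, against 0.02 in Bl6 and -0.23 in CSS1). The other lists are not shown, and in some of them the CSS2 mean also lies between. Dusp10, whose mean was highest in CSS2, is not shown either.

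Members with several probes allowed a check within a gene. Of 20 such members, 13 had all probes on the same side of 0 in CSS1 against Bl6. Both probes of Cnih4 and both of Bpnt1 were called, the second Bpnt1 probe at -0.38 (adjusted p = 0.031), a call lost in 8 of 12 cases of leaving out a mouse. The other 23 members had 1 probe each. All other called members were among these, namely Lyplal1, Nvl, Lefty1, Tmem63a, Degs1, Capn2 and Dusp10. Their calls therefore could not be checked by a further probe. Among these probes, those of Lefty1, Tmem63a and Dusp10 lay nearest the intensity filter of 6.23, at a mean log2 intensity of 7.06, 7.29 and 7.60. The probes of Nvl, Lyplal1, Degs1 and Capn2 were brighter, at 8.2, 8.5, 11.6 and 12.2. In 3 members (Wdr26, H3f3a and Cdc42bpa) only a dimmer probe was called. Among the 32 dimmer probes of members, those called were 1 each of Cnih4, Bpnt1, Wdr26, H3f3a and Cdc42bpa. Over the whole array, 1.56% of probes that are not the brightest of their gene were called. The dimmer Wdr26 probe was at 0.47, 0.40, 0.56 and 0.45 in CSS1 mice 3, 6, 9 and 12, and at 0.13, 0.11, 0.07 and 0.29 in Bl6 mice 2, 5, 8 and 11. Its difference was 0.32 (adjusted p = 0.0124) from Bl6 and 0.48 (adjusted p = 0.000578) from CSS2, while the brightest Wdr26 probe differed from Bl6 by 0.04 (adjusted p = 0.971). Without Bl6 mouse 2 or 5 the adjusted p against Bl6 was 0.0554 or 0.0511. Both Wdr26 probes were nearly equally bright, at a mean log2 intensity of 11.15 and 11.07, and the brighter had the larger SE (0.11 against 0.05). Wdr26 encodes a subunit of the CTLH ubiquitin ligase, and its probes do not settle whether it differed.

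The 7 probes of H3f3a all had negative differences in CSS1, from -0.23 to -0.08, and only the dimmest was called (-0.23, adjusted p = 0.0184). That call was lost when any of 3 mice was left out. The called probe had a mean log2 intensity of 6.87, near the filter of 6.23, while the other H3f3a probes ranged from 11.3 to 14.2. One of 5 Cdc42bpa probes was called (0.18, adjusted p = 0.0455), with 3 of the others below 0 and the call lost in 11 of 12 cases of leaving out a mouse. For Srp9 itself, too, only the dimmer probe was called. Its brightest probe differed by 0.05 (SE 0.05, adjusted p = 0.869), and its dimmer probe fell by 0.41 (adjusted p = 0.00196). Unlike the 3 members above, Srp9 kept this call with each mouse left out in turn. The call was lost with median centring (adjusted p = 0.0666) and in the arrays of either dye alone. Against CSS2 the dimmer Srp9 probe fell by 0.45 (adjusted p = 0.000474).

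**Figure D4:**
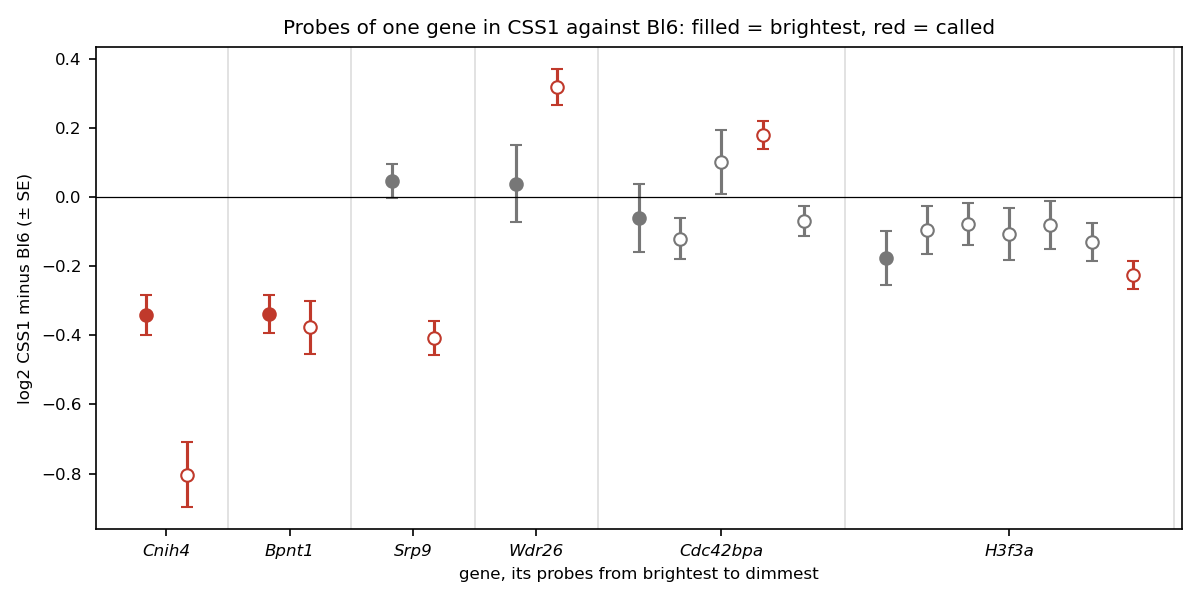
CSS1 minus Bl6 difference (log2, with the SE of the fit) of each probe of Cnih4, Bpnt1, Srp9, Wdr26, Cdc42bpa and H3f3a, ordered within a gene from brightest (filled) to dimmest, with called probes in red. The probes of Cnih4 and Bpnt1 lie on one side of 0, while only dimmer probes are called in Srp9, Wdr26, Cdc42bpa and H3f3a.

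Of the 34 genes in the interval that were not on the list, 4 were called in CSS1. Beside Lefty2 these were Coq8a, a gene of coenzyme Q synthesis near the start of the interval, with a difference of 0.25 (adjusted p = 0.0352), the potassium channel gene Kcnk2 (-0.20, adjusted p = 0.0257) and Tatdn3 (-0.15, adjusted p = 0.0476). Leaving out 1 mouse ended the call of Coq8a in 9 of 12 cases, of Kcnk2 in 6 and of Tatdn3 in 12. The Lefty2 call held in all 12. The spread between mice of the members, as a residual SD, had a median of 0.08 against 0.07 over all genes and ran from 0.04 in Tlr5 to 0.18 in Wdr26.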

How the data were processed

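RNA of 12 mice was measured on two-colour arrays of 45220 spots. The authors deposited spot intensity per channel (mean foreground and median local background, not subtracted, per the file headers) and a table of normalized log2 ratios, for which no source used here gives the normalization. Channel 1 of a file was taken as the labels' Cy5 channel; the deposited log2 table correlated positively with Cy5 over Cy3 on the 6 arrays whose sample was in Cy5 and negatively on the other 6, so its direction is sample over pool.

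Intensities were background-corrected (normexp, offset 50) and normalized by global loess, with control spots at weight 0, in limma 3.58.1 (R 4.3.3). Probes above a mean log2 intensity of 6.23, the 95th percentile of 1580 background-level control spots, were kept. Ratios were turned to sample over pool. limma was fitted over all 12 arrays with strain and dye terms (8 residual and 3.21 prior degrees of freedom), adjusted over 39239 probes. The fit was tested on simulated data. Symbols come from the platform annotation, updated through the GRCm38.p6 gene table: 28427 kept probes matched a current symbol and 3816 an older one, 63 have the annotation's symbol and 6933 have no name. No source used here gives the array's genome build, so the table served for names and gene order.

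Members, lists and tests were chosen with earlier results of these data known. Per-mouse values are given for members past the threshold in any comparison, and for up to 2 members of a role group by p where fewer passed. Alternatives covered normalization, background, filters, dye, samples, weights, probes and the authors' values. The design text gives individual mice, so p-values measure the spread between animals.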

Additional observations from a re-analysis of the deposited data

Results flagged for a closer look

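In 8 of 129 groups of 4 mice (6.2%), 1 mouse stood apart from the other 3 by more than the 95% limit of Dixon's test on the brightest probe of a member. Chance flags about 1 in 20 groups. All values are log2 ratios over the Bl6 pool. In CSS1, Fbxo28 was at 0.459 in mouse 12 and from 0.139 to 0.191 in the others, Capn2 at 0.380 in mouse 9 and from 0.211 to 0.234 in the others, and Tmem63a at 0.438 in mouse 6 and from 0.327 to 0.339 in the others. These 3 mice were further from Bl6 than the rest of their strain. H3f3a was at -0.336 in CSS1 mouse 6, against -0.150 to -0.126. Acbd3 was at -0.0185 in CSS1 mouse 12, against 0.123 to 0.134, and Itpkb at -0.0419 in CSS1 mouse 9, against 0.0202 to 0.0270. In CSS2, Aida was at -0.135 in mouse 7, against 0.0529 to 0.0775, and Rps6kc1 at -0.0261 in mouse 10, against 0.0112 to 0.0151.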

How the results depend on the processing

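The counts of called members were recomputed under 26 alternatives, 12 of which left out 1 mouse each. No called difference changed direction. In CSS1 against Bl6 (8 calls), median centring in place of loess left 3 (Lefty1, Nvl and Lyplal1), and the arrays of either dye alone gave 0, with 2 mice a strain. Leaving out 1 mouse gave 5 to 9. In CSS2 against Bl6, the single call became 0 with median centring, with no dye term, with a block of consecutive mouse numbers, with only the 2 strains compared, and with the arrays of either dye alone, and leaving out a mouse gave 0 to 1. In CSS1 against CSS2 (5 calls), the Cy3 arrays alone gave 1 and the Cy5 arrays alone gave 2, and leaving out a mouse gave 4 to 6. The other alternatives kept each count within 1.5 times. Of the 14 calls of members, 9 held with every mouse left out in turn, and 1, Lyplal1 in CSS1 against CSS2, held under all 26. Bpnt1 lost its call without the dye term (adjusted p = 0.627 against Bl6, 0.655 against CSS2), and Cnih4 with only the 2 strains compared (0.0661 against Bl6). The cause was not tested; fewer samples enter the fits by dye. No paired analysis was possible because the strains share no mouse numbers; the block of consecutive numbers is a grouping that the labels do not give as a pairing. The 4 mice a strain limit the precision, and signal was above background for all 43 members.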
